A study of Mus musculus with 4 samples.

Results

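Pyruvate, the end product of glycolysis, can be reduced to lactate and exported or carried into mitochondria and oxidised, and the 10 genes Ldha, Ldhb, Slc16a1, Slc16a3, Pdk1, Pdk2, Pdk3, Pdha1, Pdhb and Dlat encode proteins at that branch. They were chosen by name, out of 18193 genes with a symbol, and all 10 were found, on 21 probe sets. Where a gene had several probe sets, the one brightest on average over the 4 arrays stands for it, and the others are given beside it. The cells were K7M2, an osteosarcoma line of mouse origin known for spreading to the lung, grown in DMEM with serum and hybridised to 4 one-colour arrays. On 1 array the cells over-expressed GFP, and on 3 arrays (replicates 1 to 3) they over-expressed ezrinT567A-GFP, a GFP fusion of ezrin in which a regulatory threonine is replaced by alanine, so that it cannot be phosphorylated there. The labels name no clone, promoter, culture or day. P-values therefore measure only the spread between these arrays, which may be technical. The series title speaks of metabolism, and the comparison asks whether the genes that set the fate of pyruvate differ between these cells.

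As background, lactate dehydrogenase interconverts pyruvate and lactate, and monocarboxylate transporters carry lactate and pyruvate across the plasma membrane. The pyruvate dehydrogenase complex converts pyruvate to acetyl-CoA in mitochondria. Pyruvate dehydrogenase kinases phosphorylate the complex and switch it off, and phosphatases switch it on again. Many tumour cells send much of their pyruvate to lactate even with oxygen present, and Ldha and Pdk1 are textbook targets of the hypoxia-inducible factor.

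No gene of this branch passed the test, and what differences there were ran in opposite directions within it. Pdk1, Slc16a1 and Ldha lay lower in all 3 ezrinT567A-GFP arrays than in GFP, with mean differences of -0.50, -0.38 and -0.22 on the log2 scale. Dlat, Pdhb, Slc16a3, Ldhb and Pdk3 lay higher in all 3, by 0.30, 0.29, 0.20, 0.18 and 0.16. The arrays of Pdha1 and Pdk2 lay on both sides of GFP. At a threshold of 0.05, limma called 0 of the 10 genes by adjusted p and 0 by unadjusted p, where it called 0% and 14% of all 18193 genes. In 8 of 10 genes the 3 arrays lay on one side of GFP, against 58% of all genes and 66.5% of those above the median level of all genes (5.04), where 8 of the 10 genes lie. By direction, 5 of 10 were higher in all 3 arrays and 3 of 10 lower, where 32.5% and 25.6% of all genes were. The share on one side is near that background. The median difference was 0.08 over the 10 genes and 0.03 over all genes, and 0 of 10 reached 2-fold by the brightest probe set.

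**Figure D1:**
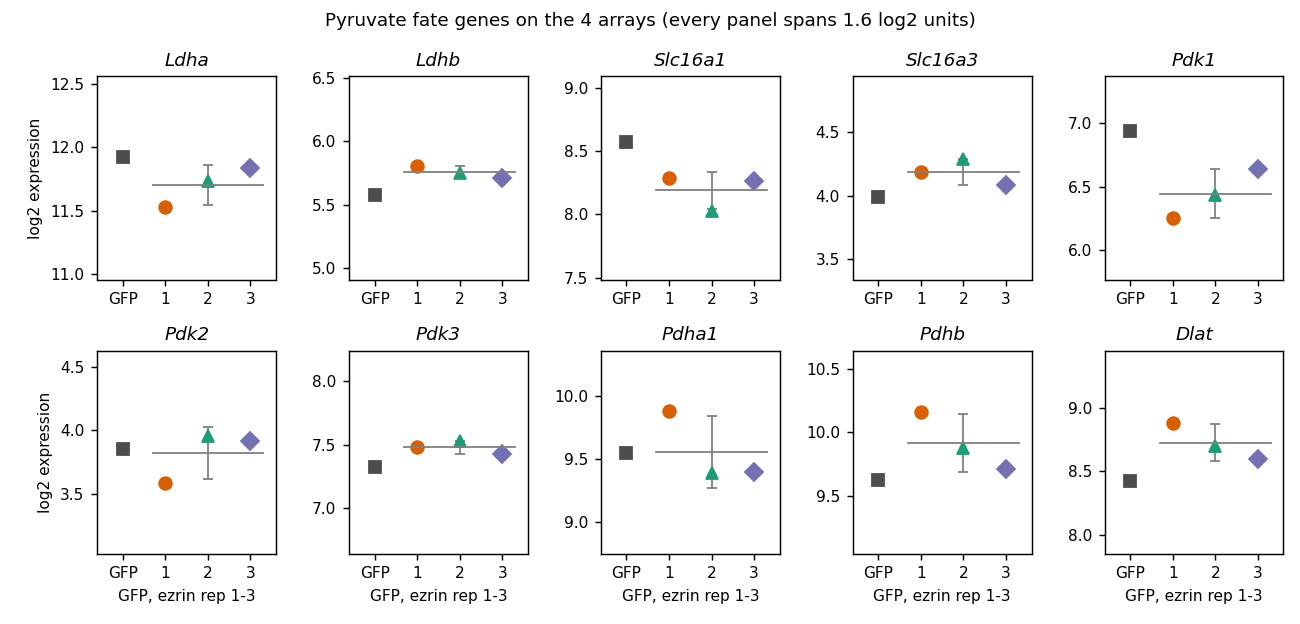
The log2 expression of the 10 genes on the GFP array (square) and on ezrinT567A-GFP replicates 1, 2 and 3 (circle, triangle, diamond), with the mean and SD of the 3 replicates in grey. Pdk1, Slc16a1 and Ldha lie below GFP on all 3 arrays, and Dlat, Pdhb, Slc16a3, Ldhb and Pdk3 above it.

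The promoters of the genes that lay furthest from GFP are shown, since Pdk1, Slc16a1 and Ldha were lower together while Pdhb and Dlat were higher. The windows run from 250 bases before to 50 bases after the gene's start, 5′ to 3′ on the gene's strand, and are RefSeq's on GRCm38.p6. Capitals mark the hypoxia-response core ACGTG or GCGTG and the E-box CACGTG, the letters bound by MYC and MAX, each searched on both strands. CACGTG is its own reverse complement and holds ACGTG on either strand.
Pdk1 promoter, chr2:71872974-71873273, plus strand: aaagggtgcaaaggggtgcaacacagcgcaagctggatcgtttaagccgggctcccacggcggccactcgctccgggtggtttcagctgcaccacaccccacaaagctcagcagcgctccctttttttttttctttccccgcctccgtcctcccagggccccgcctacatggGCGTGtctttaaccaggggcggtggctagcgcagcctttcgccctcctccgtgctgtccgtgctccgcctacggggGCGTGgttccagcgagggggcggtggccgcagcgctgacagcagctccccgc
Slc16a1 promoter, chr3:104638414-104638713, plus strand: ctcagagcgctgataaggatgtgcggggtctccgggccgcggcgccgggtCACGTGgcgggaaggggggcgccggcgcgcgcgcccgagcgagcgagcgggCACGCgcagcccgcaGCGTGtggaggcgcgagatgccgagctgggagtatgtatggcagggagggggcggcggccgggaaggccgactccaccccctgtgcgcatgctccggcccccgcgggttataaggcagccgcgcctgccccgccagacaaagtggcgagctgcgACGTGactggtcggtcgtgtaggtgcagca
Ldha promoter, chr7:46845554-46845853, plus strand: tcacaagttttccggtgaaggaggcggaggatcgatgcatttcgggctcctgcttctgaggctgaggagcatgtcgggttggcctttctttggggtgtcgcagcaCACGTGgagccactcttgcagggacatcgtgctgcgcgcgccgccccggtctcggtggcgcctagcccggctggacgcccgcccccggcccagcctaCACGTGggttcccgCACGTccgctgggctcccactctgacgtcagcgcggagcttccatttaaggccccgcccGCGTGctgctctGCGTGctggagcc
Pdhb promoter, chr14:8172943-8173242, minus strand: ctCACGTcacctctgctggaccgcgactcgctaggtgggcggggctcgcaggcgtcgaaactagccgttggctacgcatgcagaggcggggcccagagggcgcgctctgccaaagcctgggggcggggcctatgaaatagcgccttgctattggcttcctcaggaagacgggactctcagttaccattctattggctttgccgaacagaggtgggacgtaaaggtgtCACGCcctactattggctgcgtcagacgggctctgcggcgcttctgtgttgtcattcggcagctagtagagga
Dlat promoter, chr9:50659731-50660030, minus strand: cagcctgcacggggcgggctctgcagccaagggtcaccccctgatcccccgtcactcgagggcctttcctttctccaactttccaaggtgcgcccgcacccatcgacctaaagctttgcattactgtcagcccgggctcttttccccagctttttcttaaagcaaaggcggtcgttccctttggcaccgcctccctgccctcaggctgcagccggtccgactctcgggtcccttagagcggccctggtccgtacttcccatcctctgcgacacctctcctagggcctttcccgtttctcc

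The Ldha window held CACGTG at 2 places and the Slc16a1 window at 1, whereas the Pdk1 window held no CACGTG. Each of these windows held GCGTG at 2 places, and those of Ldha and Slc16a1 also held ACGTG outside CACGTG. The Pdhb window held ACGTG and GCGTG at 1 place each, and these letters did not occur in the Dlat window. Of the 10 genes 9 had ACGTG or GCGTG in a window and 3 had CACGTG (Ldha, Slc16a1 and Pdk2), where 46.7% and 8.09% of all 27025 genes did. By window, 10 of 13 held ACGTG or GCGTG and 3 of 13 held CACGTG, where 43.8% and 7.15% of all 32851 windows of this length did. These matches are descriptions of the letters only. All the motifs hold CG, and the windows of all genes were not matched to those of the 10 genes for GC share. That share ran from 40.3% to 73.7% in the 13 windows, so the comparison does not show that the motifs are enriched. Further RefSeq windows of Ldha, Pdk1 and Pdk2 start downstream, and the second Pdk1 window held none of these motifs.

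The 4 arrays had medians of 3.85 to 3.89 over 45101 probe sets, and values near or below these are not shown to be above background. Of 6 osteoblast lineage markers analysed here, the collagen genes Col1a1 and Col1a2 were bright (11.3 and 12.3 in GFP), the osteoblast transcription factor gene Sp7 stood at 5.05, and Alpl, Ibsp and Dlx5, at 3.63 or less in GFP, lay below that array's median. Of the leukocyte markers, Ptprc (2.22 in GFP) and Adgre1 (2.76) were dim, Cd68 (3.89) and Cd3e (4.24) lay slightly above that array's median, and Csf1r was bright (11.9). The 4 endothelial markers (2.14 to 4.02) were dim. Of 6 epithelial markers 5 were lower in all 3 ezrinT567A-GFP arrays, where 25.6% of all genes were. The largest differences among them were those of Krt14 (-2.80), Krt5 (-2.05) and Cdh1 (-1.28). The summed log2 level of the 6 was 30.0 in GFP and 22.3 to 24.4 in ezrinT567A-GFP. Krt18 (2.25 in GFP) was near the bottom of the scale throughout. Hybridization spike-ins averaged 9.32 on the GFP array and 10.1, 11.1 and 10.4 on replicates 1, 2 and 3. The 18S rRNA probe sets averaged 9.09, 7.65, 11.35 and 7.76 on the same arrays, replicate 2 standing above the others. The part of these shifts in the differences reported here was not tested.

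The genes of the kinases that switch pyruvate dehydrogenase off did not all lie on one side of GFP. Pdk1 (probe set 1423748_at, chromosome 2) was 6.94 in GFP and 6.25, 6.44 and 6.64 in replicates 1, 2 and 3. All 3 replicates lay below GFP, with replicate 1 the lowest and replicate 3 the nearest to GFP. The difference was -0.50 (SE 0.19, 95% interval -1.02 to 0.02), which is 1.41-fold, larger than the SD of 0.19 among the replicates, and limma gave adjusted p = 0.37. It had the smallest p of the 10 genes (unadjusted p = 0.0563), and 9.72% of all genes differed by at least as much in either direction.

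Pdk1 depended on the probe set more than any other of these genes did. Probe set 1435836_at gave 7.09 in GFP and 5.78, 6.09 and 6.27 in replicates 1 to 3, a difference of -1.04 (SE 0.23) or 2.06-fold. Probe set 1423747_a_at gave 6.65 in GFP and 5.35, 5.27 and 6.03, a difference of -1.11 (SE 0.36) or 2.15-fold. Both had all 3 replicates below GFP and an unadjusted limma p of 0.01 and 0.0348, but an adjusted p of 0.316 and 0.371 over 34945 probe sets, of which 12.4% had an unadjusted p under 0.05 and 0% an adjusted one. The last probe set, 1434974_at, ran the other way at 1.65 in GFP and 1.87 to 1.92 in the replicates, below the lower quartile of every array. Its difference was 0.25, with a limma unadjusted p of 0.0289, also under 0.05, and an adjusted p of 0.357. The 3 brighter probe sets therefore share a direction and differ in size, from 1.41-fold to 2.15-fold.

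**Figure D2:**
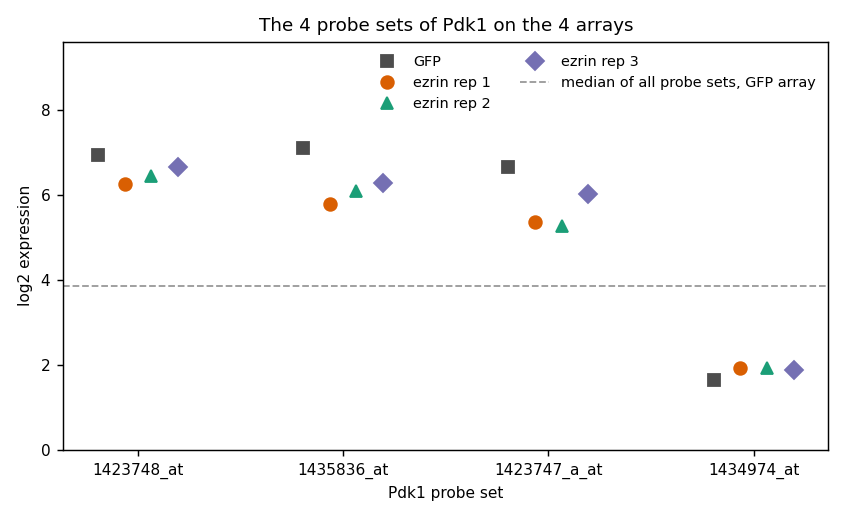
The log2 expression of the 4 Pdk1 probe sets on the GFP array (square) and on ezrinT567A-GFP replicates 1 to 3 (circle, triangle, diamond), with the median of all probe sets on the GFP array as a dashed line at 3.85. In the 3 probe sets above the line every replicate lies below GFP; the dim probe set, at 1.65 to 1.92, has them above it.

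Pdk3 (1426410_at, chromosome X), another isoform of the kinase, was 7.32 in GFP and 7.48, 7.53 and 7.43 in replicates 1 to 3. All 3 replicates were slightly above GFP and close to each other (SD 0.05). The difference was 0.16 (SE 0.12, interval -0.16 to 0.47; limma adjusted p = 0.623). Pdk2 (1448825_at, chromosome 11), the most widely expressed kinase isoform in mammalian tissues, was 3.85 in GFP and 3.58, 3.96 and 3.91 in the replicates. These values lie near the array medians, and the groups overlapped, replicate 1 lying below GFP and the others above (difference -0.04, interval -0.56 to 0.49, adjusted p = 0.957). Within each array, Pdk1 was lower relative to Pdk3 by a log2 ratio change of -0.84, -0.71 and -0.40 in replicates 1, 2 and 3, a mean of -0.65 ± 0.23 (SD, n = 3). Ratios against Pdk2 have no firm size, because Pdk2 is not shown to be above background. All ratio changes given in this report share the 1 GFP array, so their SD holds only the spread of the ezrinT567A-GFP arrays. The ratio changes were not tested.

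Of the complex that these kinases act on, Dlat and Pdhb lay above GFP in all 3 arrays, and Pdha1 on both sides. Dlat (1426264_at, chromosome 9), the lipoyl-bearing transacetylase core, was 8.43 in GFP and 8.88, 8.70 and 8.59 in replicates 1, 2 and 3. All 3 were above GFP, with a difference of 0.30 (SE 0.15, interval -0.11 to 0.71) or 1.23-fold and a limma adjusted p of 0.467. Its other probe sets gave 0.39 and 0.21, also with all 3 replicates above GFP. At least as large a difference was seen in 25.5% of all genes.

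Pdhb (1416090_at, chromosome 14), the beta subunit of the decarboxylase, was 9.62 in GFP and 10.2, 9.87 and 9.71 in replicates 1 to 3. All lay above GFP, replicate 3 by only 0.09, and the difference of 0.29 (SE 0.20, interval -0.25 to 0.83) had a limma adjusted p of 0.591, and 26.7% of all genes differed by at least as much. Without replicate 1 it was 0.17. A dimmer probe set of Pdhb gave 4.94 in GFP and 5.50, 5.21 and 5.15, a difference of 0.34. Pdha1 (1418560_at, chromosome X), the alpha subunit whose serines the kinases phosphorylate, was 9.55 in GFP and 9.88, 9.39 and 9.40. Here the groups overlapped: replicate 1 was above GFP and the others below, so that the mean difference was 0.01 (SE 0.24, interval -0.65 to 0.67, adjusted p = 0.991). The second Pdha1 probe set had the same order, at 9.02 in GFP and 9.49, 9.00 and 8.77, with a difference of 0.07. In all 3 of these genes replicate 1 was the highest array.

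Taking the mean of the 3 kinase genes against the mean of Pdha1, Pdhb and Dlat within each array, the kinases were lower relative to the subunits by -0.71 in replicate 1, -0.19 in replicate 2 and -0.08 in replicate 3. The mean of -0.33 ± 0.34 (SD, n = 3) is no larger than the spread and includes the dim Pdk2, and replicate 1 set most of it: without that replicate it was -0.13. Replicate 1 was the array farthest from GFP in 7 of the 10 genes, against 32.8% of all genes.

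**Figure D3:**
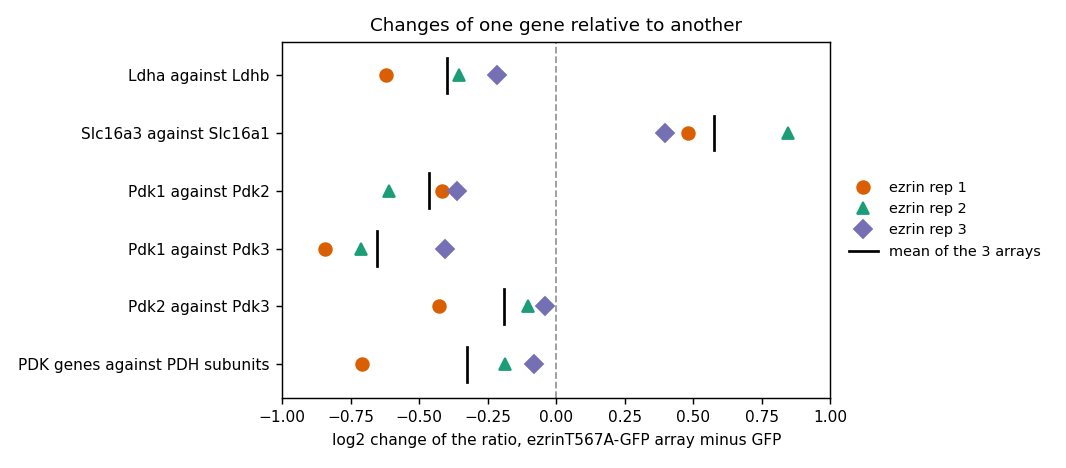
The log2 change of the ratio between genes, each ezrinT567A-GFP array minus GFP, for replicates 1 to 3 (circle, triangle, diamond), with the mean of the 3 as a black bar. Every array lies below 0 for the kinase and lactate dehydrogenase pairs and above 0 for Slc16a3 against Slc16a1; replicate 1 stands apart, at -0.71, for the kinases against the complex. Ratios that include the dim Pdk2 or Slc16a3 have no firm size.

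Ldha and Ldhb encode the muscle-type and heart-type subunits of lactate dehydrogenase, the former usually tied to lactate production. Ldha (1419737_a_at, chromosome 7), its only probe set, was 11.9 in GFP and 11.5, 11.7 and 11.8 in replicates 1, 2 and 3. All 3 lay below GFP, replicate 1 by 0.39 and replicate 3 by 0.08. The difference of -0.22 (SE 0.14, interval -0.60 to 0.17), or 1.16-fold, had a limma adjusted p of 0.568. At least as large a difference was seen in 37.5% of all genes, and without replicate 1 it was -0.13.

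Ldhb (1416183_a_at, chromosome 6) was 5.58 in GFP and 5.81, 5.75 and 5.71 in the replicates. All 3 were above GFP and close together (SD 0.05), with a difference of 0.18 (SE 0.12, interval -0.15 to 0.51; limma adjusted p = 0.582). Its other 3 probe sets were dimmer and differed in sign, at -0.35, 0.04 and -0.07, and the first of them, at 4.01 in GFP and 3.51 to 3.75 in the replicates, had every replicate below GFP. Ldha was lower relative to Ldhb by -0.62, -0.36 and -0.22 in replicates 1, 2 and 3 (mean -0.40 ± 0.20, SD, n = 3). With the mean of all Ldhb probe sets the change was -0.17.

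The transporter genes lay on opposite sides of GFP, the higher one at a level not shown to be above background. Slc16a1 (1415802_at, chromosome 3), which encodes MCT1, a carrier of lactate and pyruvate in both directions, was 8.57 in GFP and 8.29, 8.02 and 8.27 in replicates 1, 2 and 3. All 3 lay below GFP, replicate 2 the furthest. The difference was -0.38 (SE 0.15, interval -0.80 to 0.04), or 1.30-fold, with an unadjusted limma p of 0.0665 and an adjusted p of 0.388, and 17.2% of all genes differed by at least as much. A second probe set, at 2.28 in GFP and 2.30, 2.54 and 2.64, gave 0.21 near the bottom of the scale.

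Slc16a3 (1449005_at, chromosome 11), which encodes MCT4, the lactate exporter of glycolytic cells, was 3.99 in GFP and 4.19, 4.29 and 4.08. All 3 replicates were above GFP, but the level is close to the array medians, and the difference of 0.20 (SE 0.14, interval -0.17 to 0.56) had a limma adjusted p of 0.594. Because Slc16a3 is that dim, its change relative to Slc16a1 (mean 0.57 ± 0.24, SD, n = 3, and 0.28 with the mean of each gene's probe sets) has no firm size.

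**Figure D4:**
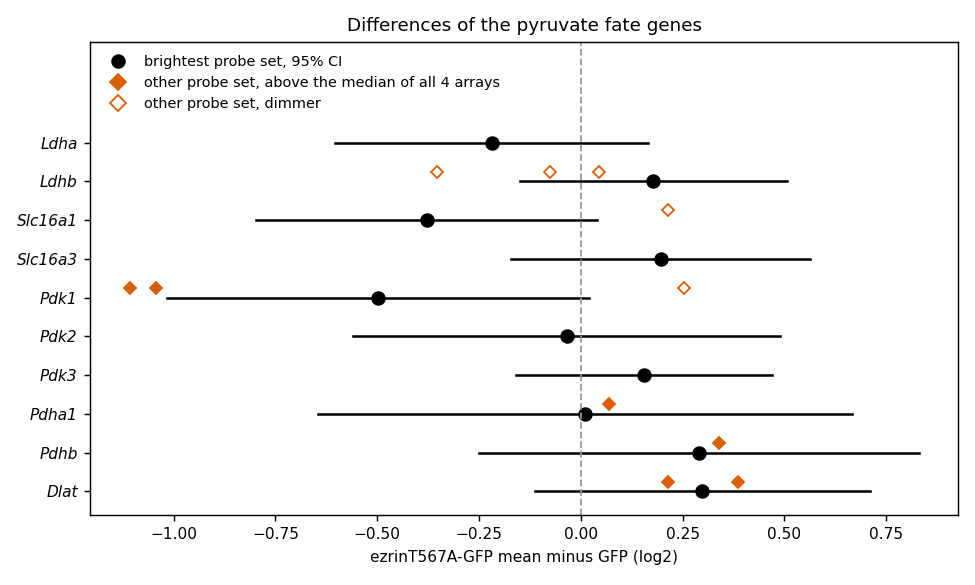
The log2 difference between the ezrinT567A-GFP mean (3 arrays) and GFP (1 array) for each gene, with limma's 95% interval (black). Orange diamonds are the gene's other probe sets, filled where all 4 values lie above the array medians. All 10 intervals include 0; the 2 filled Pdk1 diamonds lie near -1.04 and -1.11.

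The median differences of the chromosomes that hold the 10 genes were small, from -0.14 to 0.11, and are given as description only. Among genes above the median level, the median difference was 0.11 on chromosome 2, which holds Pdk1, -0.01 on chromosome 3 (Slc16a1), 0.09 on chromosome 7 (Ldha), -0.04 on chromosome 9 (Dlat) and -0.05 on chromosome 14 (Pdhb). It was -0.07 on chromosome 6 (Ldhb), 0.11 on chromosome 11 (Slc16a3 and Pdk2) and -0.14 on chromosome X (Pdk3 and Pdha1). Of 9095 other genes above the median level, the patterns most like that of Pdk1 over the 4 arrays, centred on each gene's mean, were those of Srgap2, Thap2 and Tia1, at Euclidean distances of 0.046, 0.053 and 0.06 log2 units. Their differences were -0.48, -0.47 and -0.44. A likeness over 4 arrays describes these arrays only.

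The rest of the pathway was read from lists of 46 related genes, of which 45 were analysed here. In these lists 30 genes were higher and 15 lower, with a median difference of 0.16 against 0.03 over all genes. All 3 arrays lay on one side of GFP in 37 of 45, 24 above and 13 below. Of all genes 32.5% lay above and 25.6% below in all 3 arrays. Of the 45 related genes 34 were brighter than the median gene. With limma 0 of 45 had an adjusted p under 0.05 and 12 an unadjusted one, against 0% and 14% of all genes, and the counts on one side stand against the 58% and 66.5% given above.

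**Figure D5:**
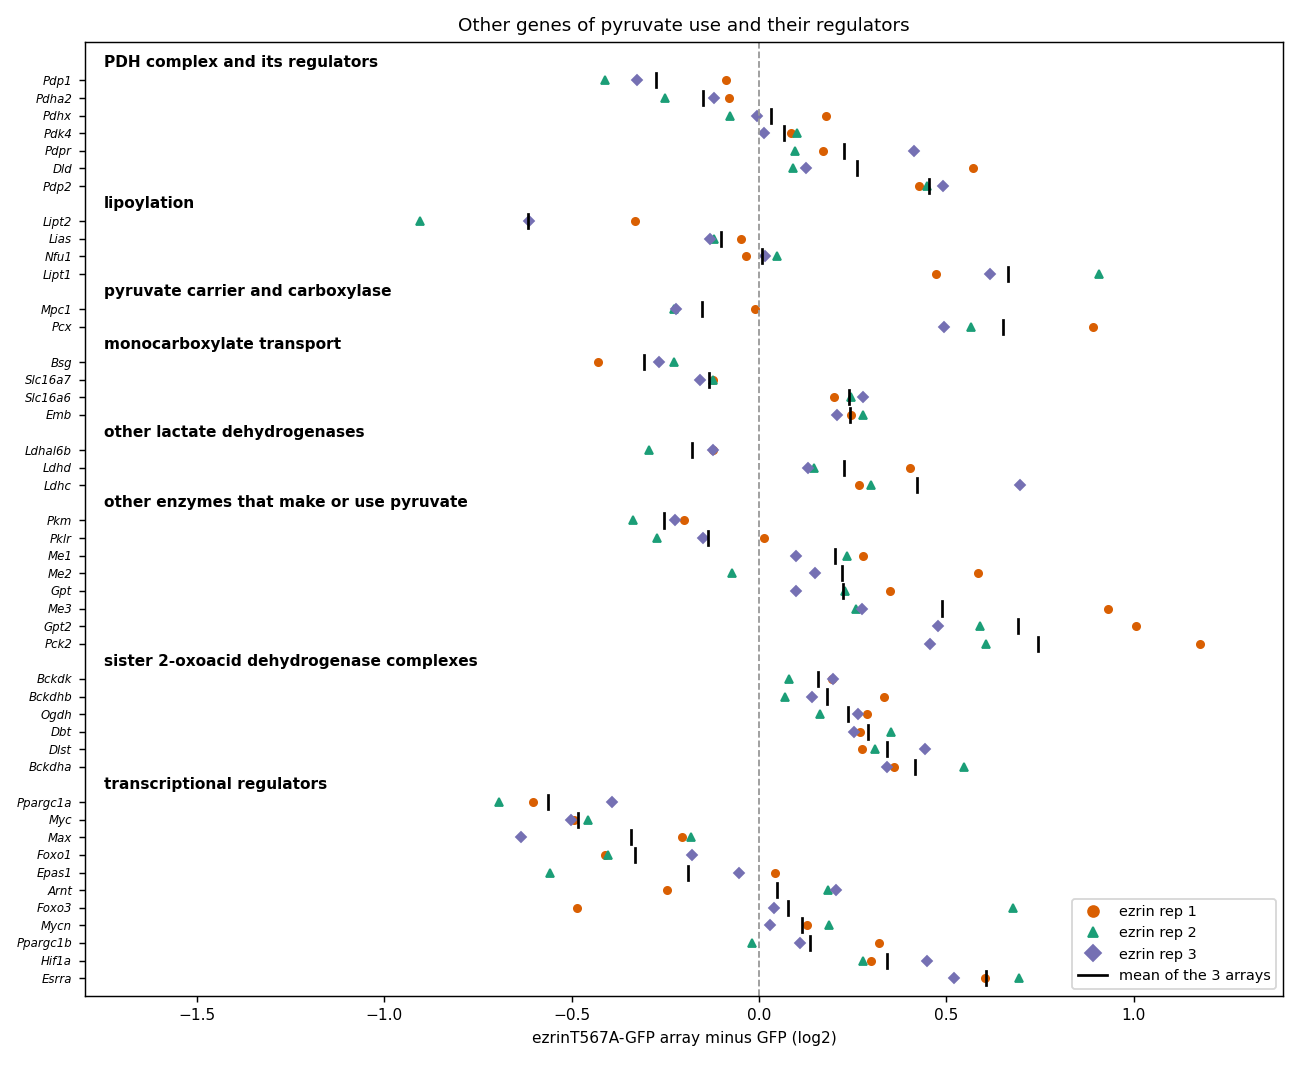
The log2 difference of each ezrinT567A-GFP replicate (circle, triangle, diamond) from GFP for the 45 related genes, grouped by role, with the mean as a black bar. All 6 genes listed with the sister dehydrogenase complexes, the kinase gene Bckdk among them, lie to the right of 0 on every array. Myc and Ppargc1a lie to the left.

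Among 7 other genes of the pyruvate dehydrogenase complex and its regulators, 4 were higher and 2 lower in all 3 arrays (median 0.07). Of all genes 32.5% were higher and 25.6% lower in all 3. Pdp2, a phosphatase that reactivates the complex, was 4.07 in GFP and 4.49, 4.52 and 4.56 in the replicates. The difference was 0.46 (SE 0.11, limma adjusted p = 0.275), but the GFP level is close to the array median and not shown to be above background. The other phosphatase gene, Pdp1, was lower in all 3 arrays, with a difference of -0.28 and probe sets from -0.61 to -0.28. Pdk4, the starvation-induced kinase, counted among the 4 higher, stood at 1.75 in GFP, below the lower quartile of the array and not shown to be above background, and differed by 0.07. Dld, the shared dihydrolipoyl dehydrogenase, differed by 0.26 with replicate 1 far above the others (0.57, 0.09 and 0.12). Its probe sets ranged from -0.16 to 0.26. Pdp1, Pdk4 and Dld were named after their values were seen.

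A further list covered the complexes built on the same plan, which oxidise 2-oxoglutarate or branched-chain keto acids. All 6 of its genes were higher in all 3 arrays, where 32.5% of all genes were, with a median of 0.27. The list includes Bckdk, the kinase of the branched-chain complex and not a subunit. Its probe sets ranged from -0.18 to 0.16, and it was named after its value was seen. Dlst, the transsuccinylase of the 2-oxoglutarate complex, was 8.87 in GFP and 9.15, 9.18 and 9.32, a difference of 0.34 (SE 0.12, limma adjusted p = 0.338). Its probe sets ranged from -0.05 to 0.34. Bckdha, a subunit of the branched-chain complex, was higher by 0.42 (SE 0.15, adjusted p = 0.342). Of 4 lipoylation genes 1 was higher and 2 were lower in all 3 arrays (median -0.05), where 32.5% and 25.6% of all genes were. Lipt1, a lipoyltransferase, stood at 4.60 in GFP and at 5.07, 5.51 and 5.22 in the replicates (difference 0.66, probe sets 0.17 to 0.66, limma adjusted p = 0.312). Lipt2, which attaches the octanoyl group from which lipoate is made, was lower in all 3 arrays, with a difference of -0.62, and Lias, lipoate synthase, with one of -0.10; both were named after their values were seen.

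On other routes to and from pyruvate, Pck2, Gpt2 and Pcx differed more than any of the 10 genes did by its brightest probe set, although 2 other Pdk1 probe sets differed more than they did. Pck2, the mitochondrial phosphoenolpyruvate carboxykinase, was higher in all 3 arrays by 0.75 (SE 0.32, limma adjusted p = 0.4, probe sets 0.19 to 0.75) and was named after its value was seen. Pcx, pyruvate carboxylase, which makes oxaloacetate, was 6.96 in GFP and 7.86, 7.53 and 7.46 in replicates 1 to 3, a difference of 0.65 (SE 0.20, limma adjusted p = 0.305) or 1.57-fold. Gpt2, the mitochondrial alanine transaminase, was 7.83 in GFP and 8.83, 8.42 and 8.30 (difference 0.69, SE 0.24, adjusted p = 0.342), with probe sets from 0.30 to 0.69. Replicate 1 was the farthest from GFP in both. Pkm, the pyruvate kinase that feeds the branch, was 11.8 in GFP and 11.6, 11.5 and 11.6, a difference of -0.25 (SE 0.09, adjusted p = 0.342). Among 8 such enzymes 5 were higher and 1 lower in all 3 arrays, where 32.5% and 25.6% of all genes were.

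Bsg, basigin, the chaperone that carries MCT1 and MCT4 to the membrane, was 11.4 in GFP and 11.0, 11.2 and 11.2 in replicates 1 to 3. All 3 lay below GFP, as for Slc16a1, with a difference of -0.31 (SE 0.11, limma adjusted p = 0.353). Emb, embigin, an alternative chaperone, stood at 3.28 in GFP, below the array median and not shown to be above background. It differed by 0.24, with probe sets from -0.15 to 0.24, and was named after its value was seen.

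Of 11 transcriptional regulators 3 were higher and 4 lower in all 3 arrays, where 32.5% and 25.6% of all genes were. Myc, whose product activates Ldha and other glycolytic genes, was 9.20 in GFP and 8.71, 8.75 and 8.70 in the replicates. The replicates were tightly grouped below GFP, with a difference of -0.48 (SE 0.10, limma adjusted p = 0.236). Esrra, the nuclear receptor ERR alpha that drives mitochondrial genes, was 7.21 in GFP and 7.82, 7.91 and 7.73, a difference of 0.61 (SE 0.13, adjusted p = 0.241). The probe sets of Esrra ranged from 0.41 to 0.61. Its coactivator gene Ppargc1a was lower by -0.56, from a dim 3.51, and the Ppargc1a probe sets ranged from -0.56 to 0.36. Hif1a, the oxygen-regulated subunit of the hypoxia-inducible factor, was 10.0 in GFP and 10.3, 10.3 and 10.5 (difference 0.34, SE 0.11, limma adjusted p = 0.32), with probe sets from -0.10 to 0.50. Its textbook targets Pdk1 and Ldha were lower on the same arrays, and Slc16a3, not shown to be above background, was higher. Factor activity is regulated on the protein and was not measured.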

How the data were processed

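Total RNA was labelled by the one-cycle Affymetrix assay, per the labels' protocols. The authors deposited log2 expression per probe set from RMA, per the submitters' processing notes, with values from 1.18 to 13.7; its software is not given in the sources used here. Because RMA equalises the arrays, a change in total RNA would not be seen.

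Of 45101 probe sets 34958 had 1 gene symbol in the platform annotation, and the 34945 that were not controls were used, with symbols checked against the GRCm38.p6 gene table. The model was limma 3.58.1 under R 4.3.3 (lmFit, eBayes with a mean trend, two-sided, Benjamini-Hochberg over all genes, threshold 0.05), without a filter. The spread came from the 3 ezrinT567A-GFP arrays (2 residual degrees of freedom, prior 2.23), and GFP was assumed to vary alike. Scripts were tested on simulated data. Alternatives were quantile normalization, median centring, other probe set rules, a filter on dim genes, other priors and leaving out each replicate. Members and lists were chosen with earlier results of these data known. Related genes with an unadjusted p under 0.05 were named; further ones are marked as named after their values were seen. Markers without a single-gene probe set were not analysed here. Figures used matplotlib 3.10.9.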

Additional observations from a re-analysis of the deposited data

How the results depend on the processing

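None of the 10 genes passed the threshold under any of the 10 alternatives, and 0 of the related genes did. Over all genes limma called 34 with quantile-normalized arrays, 30 with arrays centred on their medians, 6 with probe sets averaged per gene, 3 among genes above the median level and 9 with a robust prior, against 0; the cause was not tested. Ldha, Slc16a1, Slc16a3, Pdk1, Pdk3, Pdhb and Dlat kept their direction in every alternative that gave a value, Pdk1 between -0.60 and -0.40 and Slc16a1 between -0.43 and -0.08. Without replicate 1 Ldha was -0.13 and Pdhb 0.17. Ldhb turned to -0.051 with probe sets averaged, Pdk2 to 0.083 without replicate 1, and Pdha1 to -0.0085 after centring and to -0.15 without replicate 1. Without 1 replicate in turn Pdk2 ran from -0.10 to 0.083 and Pdha1 from -0.15 to 0.095. The change of Ldha relative to Ldhb moved to -0.17 and that of Slc16a3 relative to Slc16a1 to 0.28 with probe sets averaged. Ldha and the brightest Ldhb probe set are of the _a_at kind, so the alternative with _at probe sets only gave no value for them. No paired analysis was possible because 1 GFP array stood against 3 ezrinT567A-GFP arrays. With 1 GFP array, its own error could not be measured.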
